A study of Mus musculus with 4 samples.

Results

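The genes described here are the 10 core circadian clock genes *Arntl*, *Npas2*, *Clock*, *Per1*, *Per2*, *Per3*, *Cry1*, *Cry2*, *Nr1d1* and *Dbp*, chosen by name as the parts of the molecular clock, out of 32585 genes or identifiers on a mouse microarray. The RNA came from spinal cord and duodenum of male mice aged 20 weeks, which were either WT littermates or IP6K2-KO animals. IP6K2 is a kinase that makes the inositol pyrophosphate IP7, and in the KO line the exon that encodes its kinase domain was deleted. Mice of both genotypes were raised on the normal diet CE-2, were given iVid-neo, a purified diet, for 1 week, and went without food for 48 h. Each genotype and tissue was measured on 1 array, 4 arrays in all on 1 slide, so nothing could be checked against replicates or tested. The time of day at which the mice were killed, and the number of mice behind each array, are not given in the sources used here.

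The clock is a feedback loop of transcription. *Arntl* and *Clock*, or *Npas2* in place of *Clock*, encode the activators, which pair and bind E-box sequences. Among their targets are the *Per* and *Cry* genes, whose proteins return to the nucleus and block the activators, *Nr1d1*, whose protein represses *Arntl*, and *Dbp*, an output transcription factor that binds D-box sequences. In peripheral tissues such as the gut, *Arntl* and *Npas2* peak at roughly the opposite time of day from *Dbp*, *Nr1d1* and the *Per* genes, and feeding time and glucocorticoids can shift the phase. Each array samples the loop at 1 moment, and a difference in level and a difference in phase cannot be told apart on these arrays.

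Each value below starts from the processed signal, which is the brightness of a spot after background subtraction. Its log2 was taken and the 75th percentile of the array was subtracted, and this is called the level. Of the 10 genes, 9 had 1 probe and *Dbp* had 2, and each probe was printed as 1 spot on each array. The only error that can be given is a technical SD, from 399 other probes that were spotted 10 times on each array. It covers spots and not mice. Differences are the level on the array labelled KO minus that on the WT array, or duodenum minus spinal cord. On both spinal cord arrays all 10 genes were well above background, and likewise on the duodenum array labelled KO, and 9 were on the WT duodenum array, the exception being *Cry1*. No probe of these genes was saturated.

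The arrays differed in ways that touch every value. The 75th percentile of the signal was 905 and 971 in the spinal cord but 68.0 on the WT duodenum array and 323 on the duodenum array labelled KO. The probe for *Ip6k2* was higher on the spinal cord array labelled KO (signal 1320 against 452), and in the duodenum the levels were 0.83 and 1.04, so genotypes are given as labelled. Where that probe lies relative to the deleted exon is not stated in the files. All 6 spinal cord markers were well above background in the spinal cord, with summed log2 levels of 8.11 and 8.05, and all 7 markers of intestinal epithelium were in the duodenum, at 10.72 for WT and 9.46 for the array labelled KO. The spinal cord array labelled KO also carried skeletal muscle markers, all 4 of them at least 2-fold higher, with a summed level of 5.28 against 1.15 and *Acta1*, *Ckm*, *Myh4* and *Tnnt3* each above background on both arrays. Of peripheral nerve, the marker *Prx* gave a signal of 7564 there against 188, and *Pmp2* was not well above background on the WT array. In the duodenum all 4 red cell markers were at least 2-fold lower on the array labelled KO, with a summed level of 6.46 against 10.58. The summed levels of gut smooth muscle were 5.09 on the duodenum array labelled KO and 6.16 on the WT one, those of pancreatic acinar cells were 10.92 and 12.27, and those of enteric or other neurons were −0.51 and −0.25. The part of these cell types in the clock gene values was not tested, and fewer cells of a type cannot be told apart from less RNA per cell.

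Promoter sequence shows which of the genes carry the letters that the loop's own factors are known to bind. For 9 of the 10 genes the RefSeq table for GRCm38.p6 holds a window around the transcription start, and for *Per2* it does not. The 250 bases before each start were searched on both strands for the E-box CACGTG, the D-box TTATGTAA and the core ANTNGGTCA of the element bound by the ROR and REV-ERB receptors. *Per1* and *Cry1* each held 1 E-box, a motif found in 6.02% of all 32851 such windows. *Per3* held 2 copies of the D-box, which 0.819% of all windows hold. The receptor core was in none of these 250-base stretches of the 9 genes, against 1.87% of all windows, and none of the matches overlapped. Bases after the start were not searched, so an element there, in *Arntl* or another gene, would be missed. The windows with a match are printed here because they hold letters known to be bound by the activators or by *Dbp*, with the motifs in capitals, 5′ to 3′ on the strand of the gene.
Per1, chr11:69098699-69098948, plus strand: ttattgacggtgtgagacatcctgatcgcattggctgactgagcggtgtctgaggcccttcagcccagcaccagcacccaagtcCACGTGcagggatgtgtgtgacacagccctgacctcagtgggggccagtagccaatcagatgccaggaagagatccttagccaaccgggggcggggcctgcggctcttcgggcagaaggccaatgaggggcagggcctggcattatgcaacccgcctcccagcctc
Cry1, chr10:85185055-85185304, minus strand: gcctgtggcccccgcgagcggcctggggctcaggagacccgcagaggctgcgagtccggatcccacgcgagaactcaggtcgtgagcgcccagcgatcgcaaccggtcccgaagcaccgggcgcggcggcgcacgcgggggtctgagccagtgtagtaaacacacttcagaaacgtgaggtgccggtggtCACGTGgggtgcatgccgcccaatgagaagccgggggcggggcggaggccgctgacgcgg
Per3, chr4:151044666-151044915, minus strand: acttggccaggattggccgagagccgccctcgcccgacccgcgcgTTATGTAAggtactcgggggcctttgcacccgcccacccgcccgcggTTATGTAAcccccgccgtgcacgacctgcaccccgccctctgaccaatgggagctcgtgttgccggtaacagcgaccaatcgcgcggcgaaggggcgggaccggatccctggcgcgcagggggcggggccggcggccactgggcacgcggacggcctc
In *Per1* the E-box lay from base −166 to −161 before the start, and in *Cry1* from −60 to −55. The D-boxes of *Per3* lay from −205 to −198 and from −158 to −151. The other *Per1* window in the table held no match. A match is a description of letters and does not show that a factor was bound.

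In the spinal cord few genes of any kind were far apart between the labels, and the clock genes were no exception. None of the 10 genes was 2-fold apart, against 2.28% of all genes that were at least 2-fold higher and 0.864% that were at least 2-fold lower on the array labelled KO. The activators *Npas2* and *Clock* were slightly higher there, and the other 8 genes were below the WT array. Among all genes that both arrays measured above background 58.7% were below 0, and the median gene differed by −0.038.

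**Figure D1:**
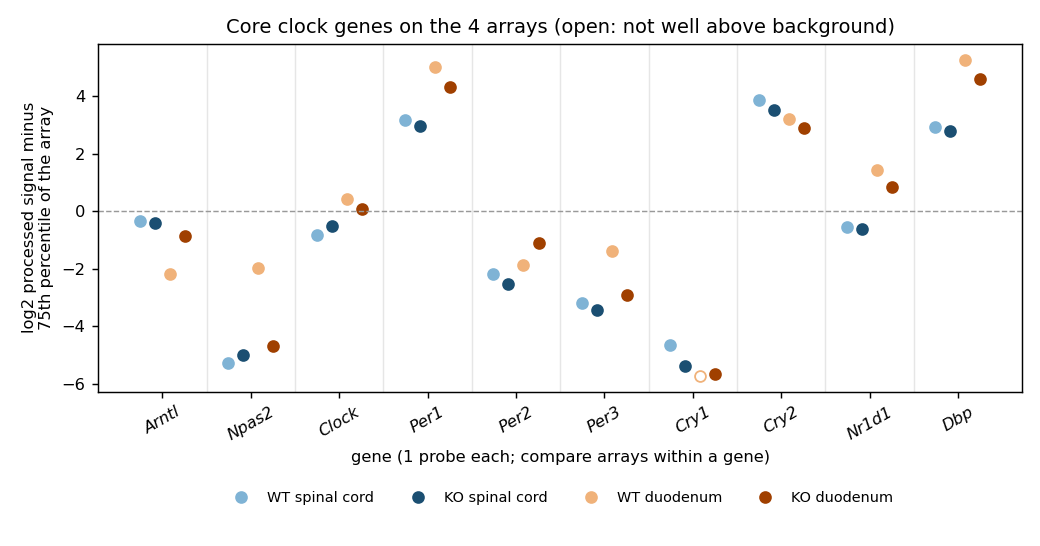
Level of each core clock gene (vertical axis, log2 processed signal minus the 75th percentile of the array) on the 4 arrays, 1 point per array and gene, with the open point not well above background. The 2 spinal cord points of a gene lie close together, whereas the duodenum points of *Arntl*, *Npas2* and *Per3* are more than 1 log2 unit apart; levels are to be compared between arrays within a gene and not between probes.

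Among the activators, *Clock*, which encodes the usual partner of the *Arntl* protein, gave processed signals of 513 for WT and 681 for the array labelled KO. Its level on the latter was 0.31 above WT, against a technical SD of 0.0625. *Npas2*, the alternative partner, was dim, with signals of 23.5 and 30.5 and a difference of 0.28 (technical SD 0.13). *Arntl*, without which the loop stops, gave 709 and 737, and its difference of −0.05 was within its technical SD of 0.062. *Npas2* and *Clock* were thus above the WT array by more than the spot error, and *Arntl* was not distinguishable from it.

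The period genes were all somewhat lower on the spinal cord array labelled KO. *Per1*, which also responds directly to light and glucocorticoid signals, gave signals of 8179 for WT and 7479 for the labelled KO array, a difference of −0.23 (technical SD 0.06). *Per2*, the main repressor of the family, gave 197 and 169, a difference of −0.32 (0.08). *Per3*, thought to matter less for the core rhythm, gave 99.9 and 89.6, a difference of −0.26 (0.09). The 3 differences were alike within their spot errors.

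The cryptochromes, which carry most of the repression of the activators, were lower as well. *Cry1* had signals of 36.4 and 23.3, and its difference of −0.74 (technical SD 0.13) was the furthest from 0 among the 10 genes in this tissue. *Cry2* was bright, at 13030 and 11172, and differed by −0.32. *Nr1d1* gave 618 and 629, a difference of −0.08 once each array's 75th percentile was subtracted. *Dbp* gave 6850 and 6682 with the probe used and differed by −0.14, and its other probe differed by −0.11. *Nr1d1* and *Dbp*, both strongly rhythmic in most tissues, were therefore among the genes that differed least.

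The median difference of the 3 activators was 0.28 and that of the 7 repressors and output genes was −0.26, so the activators lay 0.53 above the others in the spinal cord. Any shift of a whole array cancels in this contrast. It was 0.29 under normexp background correction when flagged local backgrounds were set to the array median, and 0.029 under normexp with the backgrounds as deposited. In the latter setting *Npas2* was at −1.99 instead of 0.28, and 4 genes instead of 0 were 2-fold apart, when the median gene itself lay at −0.45. The muscle and nerve markers given above differed between the same arrays, with *Prx* higher by 5.23 and *Acta1* by 4.48, and their part in these small differences was not tested.

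**Figure D2:**
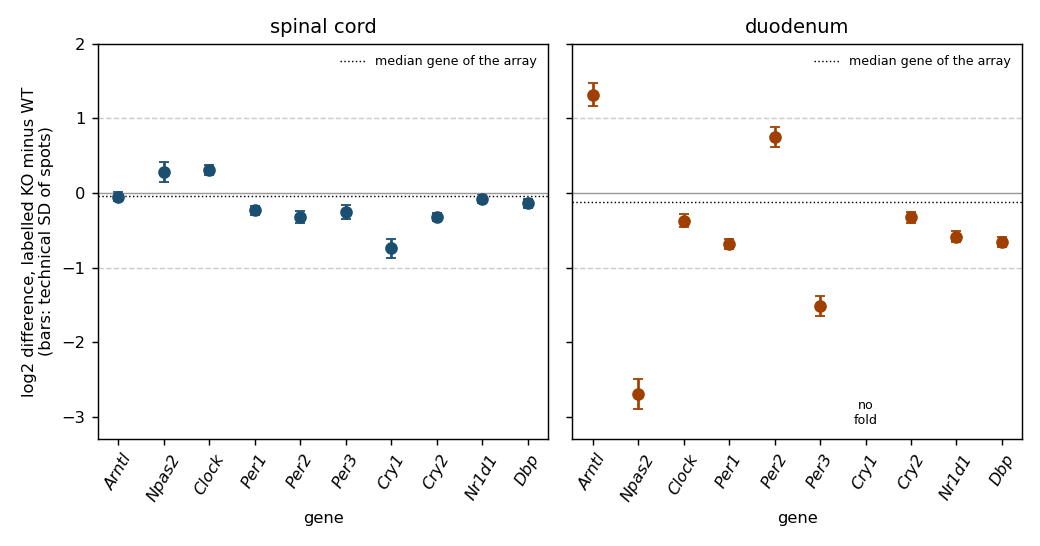
Log2 difference of each core clock gene between the array labelled KO and the WT array, in the spinal cord and in the duodenum, with bars for the technical SD of spots, a dotted line at the median gene and dashed lines at 2-fold. In the spinal cord all 10 points lie between −0.74 and 0.31, and in the duodenum they run from −2.70 for *Npas2* to 1.32 for *Arntl*, with no fold for *Cry1*.

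In the duodenum the activators parted from each other. *Arntl* was 2.50-fold higher on the array labelled KO, whereas *Npas2* was 6.49-fold lower and *Per3* 2.86-fold lower, under the scaling used here. These 3 of the 10 genes were at least 2-fold apart, 1 upward, against 7.2% of all genes, and 2 downward, against 11.9% of all genes. Of the 9 genes that both arrays measured 7 were below 0, as were 55.8% of all genes measured so, and the median gene differed by −0.11.

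*Arntl* gave a processed signal of 14.8 for WT and 176 for the array labelled KO, and the 75th percentiles of those arrays were 68.0 and 323. Its levels were −2.20 and −0.88, a difference of 1.32 against a technical SD of 0.16. The WT spot had a raw signal of 39 over a local background of 24, so it was near the low end of what the array measured. Under normexp, which corrects the background another way and adds an offset of 50 that shrinks the folds of dim spots, the difference was 0.095, and under quantile normalization of the 4 arrays it was 1.31. The *Arntl* difference was far smaller under normexp, where it was less than the technical SD of 0.16 and not distinguishable from 0. The correction and the offset were not tried apart.

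*Npas2* was dim on both duodenum arrays, with signals of 17.3 for WT and 12.6 for the array labelled KO. The raw signals were 42.5 over a local background of 21.5 for WT and 37.5 over 23 for the array labelled KO. The processed signal was somewhat higher on the WT array, although that array was several times dimmer over all probes. The levels were −1.98 and −4.67. The difference was −2.70 (technical SD 0.20), and −1.77 under normexp. The processed signals lay much closer together than the levels, so most of this difference rests on the scaling of the arrays. When the arrays were scaled on spiked-in control probes instead, the difference for *Npas2* was 0.31. *Clock* gave 91.4 and 336, levels of 0.43 and 0.06 and a difference of −0.37 (technical SD 0.088). The 3 activators therefore covered a range from −2.70 to 1.32, wider than that of the measured repressors and output genes.

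Of the period genes, *Per3* was lower on the duodenum array labelled KO, with signals of 25.8 and 42.7 and levels of −1.40 and −2.92. Its difference was −1.52 (technical SD 0.14) and it lay between −1.32 and −1.46 under normexp and quantile normalization. The WT spot of *Per3* was dim, with a raw signal of 47 over a local background of 22. Its processed signal was higher on the array labelled KO, so its lower level there rests on the scaling of the arrays. *Per2* went the other way, with signals of 18.7 and 150, levels of −1.86 and −1.11 and a difference of 0.75 (technical SD 0.14), but it was −0.20 under normexp. *Per1* gave 2167 and 6376, levels of 4.99 and 4.30 and a difference of −0.69 (technical SD 0.067). Of the 3, *Per3* alone was more than 2-fold apart, and it was so in each of these settings.

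*Cry1* had a signal of 1.29 on the WT duodenum array, which was not well above background, and 6.43 on the array labelled KO. No fold is given, since the lowest level that counted as measured on the WT array was above the level of *Cry1* on the array labelled KO. *Cry2* gave 628 and 2373, levels of 3.21 and 2.88 and a difference of −0.33, which was −0.090 under quantile normalization and 0.19 under normexp. *Nr1d1* gave 184 and 582, levels of 1.43 and 0.85 and a difference of −0.58 (technical SD 0.076). *Dbp* gave 2599 and 7843, levels of 5.26 and 4.60 and a difference of −0.65, with −0.40 for its other probe. *Nr1d1* and *Dbp* were thus both lower on the array labelled KO under the scaling used here, in the opposite direction from *Arntl*. Under normexp they differed by −0.25 and −0.11, close to the median gene at −0.18.

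The difference between the duodenum arrays moved with brightness over all genes, and this touches the bright clock genes. The genes that both of them measured were put into 10 groups of equal size by mean level, a comparison chosen after the values were seen. The brightest group, which holds *Per1* and *Dbp*, had a median difference of −0.52, and *Per1* and *Dbp* lay at −0.17 and −0.14 relative to it. *Cry2* lay at −0.088 relative to the median of its group. The genes of middling brightness stood further off, with *Nr1d1* at −0.58 and *Clock* at −0.46 relative to their groups. *Arntl* was 1.26 and *Per2* 0.70 above theirs, and *Per3* was −1.49 and *Npas2* −2.07 from theirs, the dimmest group having a median of −0.62.

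**Figure D3:**
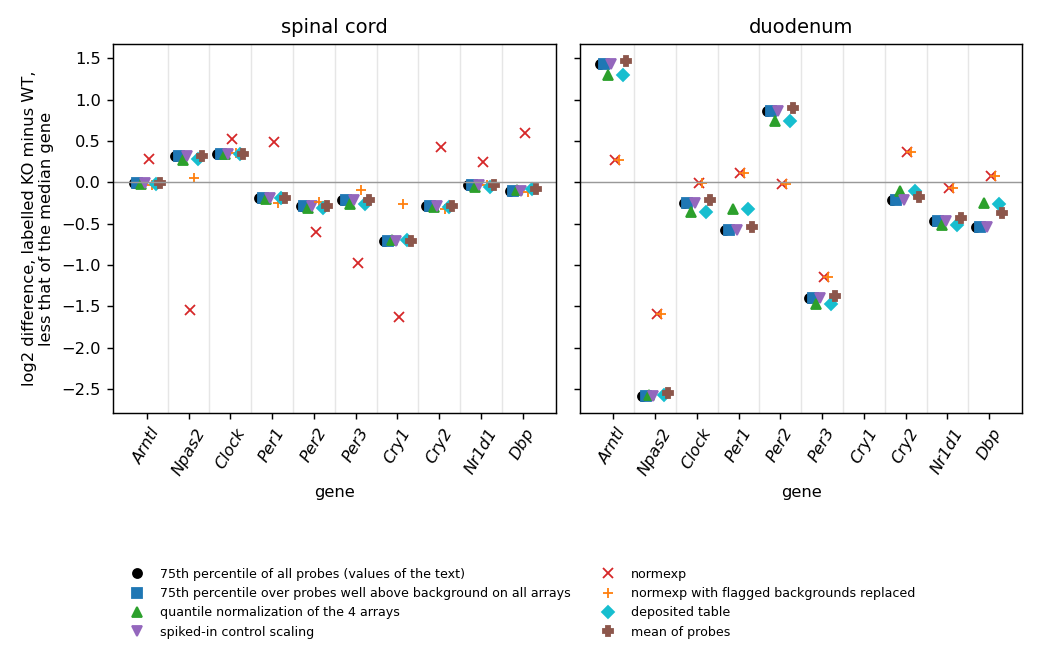
Log2 difference between the array labelled KO and the WT array, less that of the median gene, for each core clock gene in both tissues under the scaling of the text and 7 other ways of processing, 1 symbol each. In the duodenum *Npas2* and *Per3* stay below 0 and *Arntl* above 0 in every setting drawn, whereas *Per1*, *Per2*, *Cry2* and *Dbp* have symbols on both sides of 0.

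The contrast between the arms of the loop had no settled sign in the duodenum. The median of the activators was −0.37 and that of the 6 measured repressors and output genes was −0.62, a contrast of 0.25. It was −0.072 under quantile normalization, −0.10 in the authors' deposited table and −0.028 under either form of normexp.

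Between tissues each gene was set against the median gene, since the scaling moved all genes by 0.63 between the WT arrays and by 0.30 between the arrays labelled KO. Under this scaling 5 of the 10 genes were at least 2-fold higher in the WT duodenum than in the WT spinal cord, as were 23.8% of all genes. Another 2 were at least 2-fold lower, as were 32.2%. On the arrays labelled KO, 4 genes were at least 2-fold higher, as were 25.7% of all genes, and 0 were at least 2-fold lower, against 30.4%.

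*Dbp*, *Nr1d1* and *Per1* were higher in the duodenum by a like amount in both genotypes under the scaling used here. The values relative to the median gene were 1.71 and 1.52 for *Dbp*, 1.36 and 1.18 for *Nr1d1* and 1.19 and 1.06 for *Per1*, WT first. Under quantile normalization they were 0.92 and 0.91, 1.56 and 1.25, and 0.41 and 0.45, so *Dbp* and *Per1* were below 2-fold. Under normexp with flagged backgrounds replaced *Per1* was at 0.26 and 0.67. *Cry2* was lower in the duodenum, at −1.27 and −0.95. The order of the tissues for these 4 genes was the same with either label and in each of the 7 alternatives, of which 2 only shift whole arrays and could not change it.

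For *Arntl*, *Npas2* and *Per3* the tissue difference was not alike for the labels under the scaling used here. *Arntl* was lower in the duodenum, at −2.47 between the WT arrays and −0.78 between the arrays labelled KO. *Npas2* was higher in the duodenum by 2.66 between the WT arrays and by 0.02 between the others, less than its technical SD of 0.17. *Per3* was higher by 1.15 and 0.22. The WT duodenum array thus stood apart from the other 3 arrays for these genes, with *Arntl* at its lowest level and *Npas2* and *Per3* at their highest. On that array the 3 spots were near the low end. Their raw signals were 39, 42.5 and 47 over local backgrounds of 24, 21.5 and 22. The part of this dimness in the order of the arrays was not tested. Under normexp with the backgrounds as deposited the values of the labels came together, at −1.01 and −0.86 for *Arntl*, 0.44 and 0.55 for *Npas2* and 0.35 and 0.34 for *Per3*, WT first. With flagged backgrounds replaced, the WT values were −1.22, 2.14 and 1.34.

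The values of *Per2* and *Clock* also differed between the labels. *Per2* differed by −0.29 between the WT arrays, with a sign that changed among the alternatives, and by 1.11 between the arrays labelled KO. *Clock* was higher in the duodenum by 0.62 and 0.27, and the latter value was below 0 in 2 of 7 alternatives. *Cry1* could be compared only between the arrays labelled KO, where it differed by −0.57 with a technical SD of 0.24 and was above 0 in 2 of 7 alternatives.

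**Figure D4:**
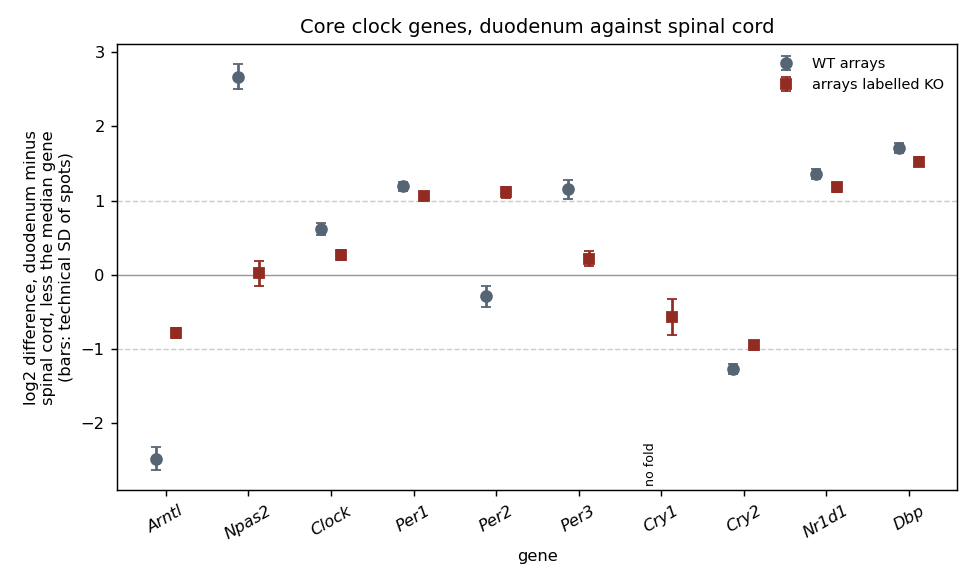
Log2 difference between duodenum and spinal cord, less that of the median gene, for each core clock gene between the WT arrays (circles) and between the arrays labelled KO (squares), with bars for the technical SD of spots and dashed lines at 2-fold. *Per1*, *Nr1d1* and *Dbp* have both symbols close together, *Cry2* and *Clock* have them somewhat further apart, and *Arntl*, *Npas2*, *Per2* and *Per3* far apart. *Cry1* has no value in WT.

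A wider list of 20 clock genes held the receptors, kinases, ubiquitin ligases and output factors around the core loop. Of the 20, 15 were below 0 in the spinal cord and 0 were 2-fold apart, with a median of −0.068, whereas 58.7% of all genes were below 0 and 2.28% and 0.864% were 2-fold higher and lower. In the duodenum 16 were well above background on both arrays, 7 of them below 0, against 55.8% of all genes, with a median of 0.10 beside −0.11 for all genes. *Hlf*, an output factor of the same family as *Dbp*, was the only one of the list at least 2-fold apart, with signals of 258 for WT and 426 for the array labelled KO and a difference of −1.52, where 11.9% of all genes were lower by at least 2-fold. *Hlf* was thus on the same side as *Dbp* under the scaling used here, although *Dbp* lay at only −0.14 relative to genes of like brightness. *Tef*, the third factor of that family, differed by 0.10.

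Genes that respond to fasting or to glucocorticoids, both known to reset peripheral clocks, were looked at because all mice were fasted. In the spinal cord 8 of the 13 were below 0, against 58.7% of all genes, with a median of −0.11. At least 2-fold higher with the KO label were 2 of the 13, against 2.28% of all genes. *Sgk1*, a kinase induced by glucocorticoids, was 1 of these and differed by 1.99. In the duodenum 3 of the 13 were below 0, against 55.8% of all genes, with a median of 0.21. *Ppargc1a*, a coactivator of mitochondrial genes, was the 1 gene of the list at least 2-fold higher, by 1.21, as were 7.2% of all genes. The metallothioneins *Mt1* and *Mt2* were at least 2-fold lower, as were 11.9% of all genes, with differences of −1.77 and −1.17, but they were among the brightest probes and differed by −0.26 and 0.04 under quantile normalization. The glucocorticoid targets *Fkbp5* and *Tsc22d3* differed by 0.24 and 0.21.

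Immediate early genes, which respond to a stimulus within minutes and include inputs to *Per1*, gave 8 of 8 below 0 in the duodenum, against 55.8% of all genes, with a median of −0.82. *Fosb* differed by −3.15, with signals of 147 for WT and 78.4 for the array labelled KO, and *Junb* and *Ier2* each differed by −1.10. These 3 were the members of the list at least 2-fold apart, against 11.9% of all genes that were lower by as much. The list was not set against genes of like brightness, although the duodenum difference moved with brightness. For the spinal cord 5 of the 7 measured on both arrays were below 0, against 58.7% of all genes, with a median of −0.16.

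**Figure D5:**
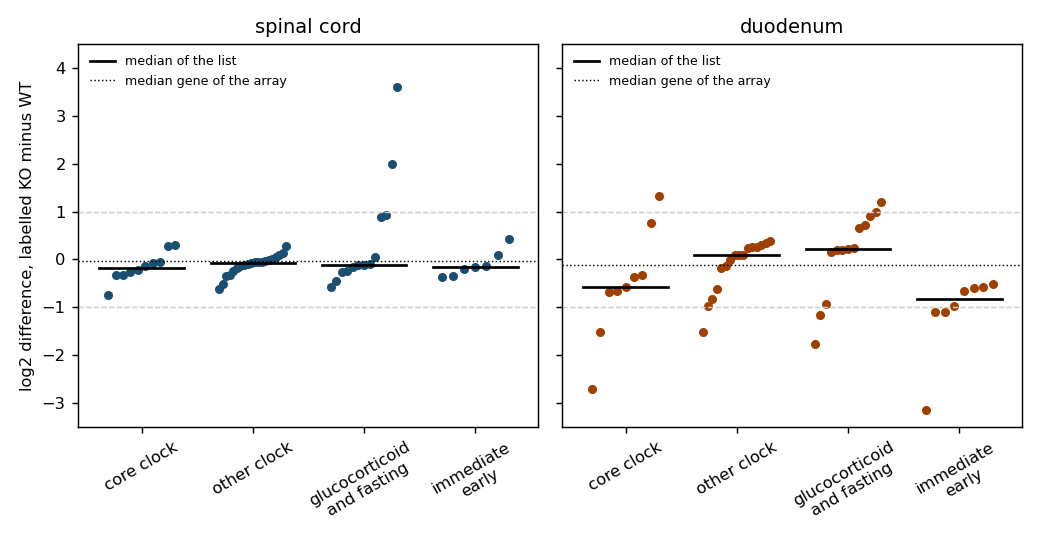
Log2 difference between the array labelled KO and the WT array for the genes of 4 lists that were well above background on both arrays, in the spinal cord and the duodenum, with a bar at each list's median and a dotted line at the median gene. In the duodenum the immediate early genes all lie below 0 with a median of −0.82, and the core clock genes have a median of −0.58.

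Genes with nearly the same values as a clock gene were not hard to find. Over 12025 named genes well above background on all 4 arrays, likeness was the Euclidean distance over 3 numbers, the difference by label in each tissue and the WT difference between tissues. Nearest to *Arntl* were *Cct6a*, *Golgb1* and *Tatdn3*, at distances of 0.046, 0.059 and 0.092. Nearest to *Dbp* were *Mpdu1*, *Uqcrq* and *Aspscr1*, at 0.050, 0.061 and 0.063, and nearest to *Per1* were *Uprt*, *Exosc2* and *Il27*, at 0.061, 0.093 and 0.097. No other gene of the core or wider clock lists was among these neighbours. Only 3 neighbours per gene were kept out of 12025 genes, which is too few to show whether clock genes resemble each other.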

How the data were processed

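Mouse tissue RNA was labelled with Cy3 and hybridized to 1-colour arrays whose design is annotated on mm9. The authors deposited Agilent Feature Extraction 11.5.1.1 output, whose processed signal is an intensity corrected for background and for spatial trend, with raw spot and local background intensities, and a table of normalized log2 values. For the clock probes that table matched log2 signals normalized by quantiles over the 4 arrays to within 0.0036.

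Controls and outlier spots were dropped (89 to 133 of 43020 per array), and log2 signals were averaged per probe, giving 39429 probes. Each array was scaled by its 75th percentile. Names came from RefSeq accessions (25868 of 26391 matched). The probe with the highest mean stood for a gene. A probe not well above background on 1 array gave a bound, or no fold. The technical SD of a difference combines, for each array, the median SD of the 50 repeatedly spotted probes nearest in brightness. All 10 clock genes are named, and genes of the other lists when at least 2-fold apart in a tissue; *Tef*, *Fkbp5* and *Tsc22d3* were added after their values were seen. The values of a few list genes are not reported here. The members and lists were chosen with earlier results of these data known.

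No test was possible with 1 array per group. The alternatives were a percentile over probes measured on all arrays, quantile normalization, scaling on 8 spiked-in probes, 2 forms of normexp with an offset of 50, the mean over a gene's probes, the deposited table, a 1.5-fold threshold and measurement on both arrays. limma 3.58.1 in R 4.3.3, Python 3.11.15, numpy 2.4.6 and pandas 2.3.3 were used. The functions were tested on simulated data.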

Additional observations from a re-analysis of the deposited data

Results flagged for a closer look

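*Arntl*, *Npas2*, *Clock* and *Per2* differed in opposite directions between the arrays of the 2 labels in the 2 tissues under the scaling used here. The difference by label in the duodenum minus that in the spinal cord was 1.37 for *Arntl*, −2.97 for *Npas2*, −0.68 for *Clock* and 1.07 for *Per2*. With 1 array per group the difference between tissues was not tested. The spinal cord value of *Arntl* was within its technical SD, and that of *Per2* in the duodenum had the other sign under both forms of normexp. Relative to the median gene, *Clock* in the duodenum was at −0.0024 under both of these forms. *Npas2* went the same way in both tissues under normexp with the backgrounds as deposited, at −1.99 in the spinal cord and −1.77 in the duodenum, and with flagged backgrounds replaced it was at 0.0030 in the spinal cord.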

How the results depend on the processing

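In the duodenum, 3 clock genes were at least 2-fold apart. The count was 9 under scaling on the spiked-in probes, which moved the median gene by 2.89, and 6 at 1.5-fold. With the spiked-in scaling *Per3* was at 1.49 and *Npas2* at 0.31, so neither was lower on the array labelled KO. In the spinal cord the count of 0 became 4 under normexp with the backgrounds as deposited and 1, *Cry1*, at 1.5-fold. The contrast of activators against repressors and output genes in the duodenum, 0.25, was −0.072 under quantile normalization, −0.028 under both forms of normexp and −0.10 in the deposited table. In the spinal cord it was 0.53, and 0.029 and 0.29 under the 2 forms of normexp. The cause of these changes was not tested. Relative to the median gene, 135 of 156 values of single genes kept their sign under the settings that do more than shift whole arrays. Quantile normalization and the deposited table gave nearly the same values, so this count holds near duplicates. *Per1*, *Per2*, *Cry2* and *Dbp* in the duodenum changed sign under both forms of normexp. No replicate could be left out. The dim WT duodenum array, with 51.6% of probes well above background, limits *Cry1*, *Arntl*, *Npas2*, *Per2* and *Per3*. No paired analysis was possible because each group holds 1 array.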
